A study of Mus musculus with 41 samples.

Results

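The stimuli set against each other here are a cytokine, IL-25, and a neuropeptide, α-CGRP (alpha-calcitonin gene-related peptide, called CGRP below), each given alone to group 2 innate lymphoid cells (ILC2s) of the mouse small intestine. Of the 41 samples of the series, 7 bulk RNA-seq libraries enter the comparison, 3 with IL-25 and 4 with CGRP, chosen by their sample labels, and all 23420 genes of the deposited table were considered. The cells came from wild-type female BALB/cJ mice at 8 weeks of age. Each culture held 250 KLRG1+ ILC2s isolated by flow sorting. Every group, the controls included, was kept for 3 hours with both IL-2 (100 ng/ml) and IL-7 (100 ng/ml). The IL-25 group received IL-25 at 100 ng/ml in addition, and the CGRP group received α-CGRP at 0.4 µg/ml. The 3 libraries with neither agent (base medium) and the 3 libraries with both (the combination) are given beside them. Whether the libraries within a group are from different mice or wells is not stated in the labels. The p-values therefore describe variation among these libraries, part or all of which may be technical.

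ILC2s are tissue-resident lymphocytes without antigen receptors that answer signals from epithelium and nerves with type 2 cytokines. IL-25, released by tuft cells, binds a receptor of the IL-17 receptor family made of IL17RB and IL17RA and acts through NF-kB and MAP kinase pathways. CGRP, released by sensory and enteric neurons, binds the G protein-coupled receptor CALCRL together with the accessory protein RAMP1 and raises cyclic AMP (cAMP), which acts through protein kinase A and the CREB family of transcription factors.

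Total counts without Rn45s, the precursor of ribosomal RNA, ran from 3421708 to 6887338 in the IL-25 libraries and from 4562906 to 6655763 in the CGRP libraries. They ran from 1966225 to 5621505 in base medium and from 1480077 to 4224832 in the combination. Rn45s took 67.3% to 74.5% of all counts with IL-25 and 57.5% to 71.7% with CGRP (exact permutation test over 35 arrangements, two-sided, p = 0.2). Levels are given as CPM, counts scaled to the library total without Rn45s and corrected with TMM factors. CGRP library 2 stood apart, with a median Spearman correlation of 0.871 to the other 12 libraries where the remaining CGRP libraries had 0.912 to 0.918. The ILC2 marker Klrg1 lay at 267 to 552 CPM with IL-25 and at 389.5 to 639.5 CPM with CGRP. The 14 ILC2 markers, Klrg1 included, summed to 7018 to 9418 CPM with IL-25 and 9109 to 10200 CPM with CGRP. Among them Il13 was called higher with IL-25 in the comparison below, and Il17rb and Areg higher with CGRP. Thy1 was low, at 25.4 to 28.3 CPM with IL-25 and 20.9 to 28.9 CPM with CGRP. Summed over 9 T cell markers the libraries had 56.3 to 89.7 CPM with IL-25 and 62.1 to 84.3 CPM with CGRP, with Cd3g at 8.26 to 38.6 and 27.8 to 42.8 CPM and Cd3e at or under 4.09 CPM. Summed over 9 B and plasma cell markers they had 18.6 to 92.0 CPM and 21.2 to 39.4 CPM. The highest was IL-25 library 2, with Cd79b at 65.4 CPM and Ms4a1 at 10.7 CPM, and Pax5 was at 0 in all 7 libraries. The 10 markers of NK cells, ILC1s and ILC3s summed to 847 to 2215 CPM with IL-25 and 1280 to 2093 CPM with CGRP. Gzma, a cytotoxic granule gene of NK cells and ILC1s, lay at 285 to 1079 CPM with IL-25 and at 757 to 1475 CPM with CGRP. Ncr1 lay at 118 to 271 and 193 to 338 CPM, and Il22 at 19.2 to 603 and 23.9 to 309 CPM. In the comparison below 0 of these 10 markers were called, which does not show how much RNA came from such cells.

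Summed markers of some other cell types did not overlap between the groups or were high in 1 library. The 9 mast cell and basophil markers summed to 253 to 302 CPM with IL-25 and 145 to 188 CPM with CGRP, nearly all of it from Kit, which ILC2s can also express, with Mcpt2 at 0 in all 7 libraries. The 14 epithelial, stromal and endothelial markers summed to 327 to 407 CPM with IL-25 and 144 to 203 CPM with CGRP, most of it from Epcam and Pecam1. Over 24 genes of blood and lymphatic endothelial cells, a list drawn up after these values had been seen, the summed level was 193 to 294 CPM in the IL-25 libraries and 21.2 to 42.1 CPM in the CGRP libraries. Base medium had 11.7 to 28.9 CPM and the combination 30.8 to 39.8 CPM. Of the 24 genes 13 were tested and 6 were called higher with IL-25 (1.3% of all genes tested), and the defining lymphatic factor Prox1 stayed at or under 1.25 CPM in the IL-25 libraries. Over 9 myeloid genes, also listed afterwards, CGRP library 2 reached 1790 CPM and the other CGRP libraries 172 to 330 CPM, against 89.0 to 177 CPM with IL-25. Over 8 smooth muscle genes, listed in the same way, CGRP library 3 reached 531 CPM, against 5.48 to 10.1 CPM in the IL-25 libraries and 7.70 to 9.26 CPM in the remaining CGRP libraries. The part of these transcripts in the differences below was not tested, and in bulk samples fewer cells of a type and less RNA per cell cannot be told apart.

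**Figure D1:**
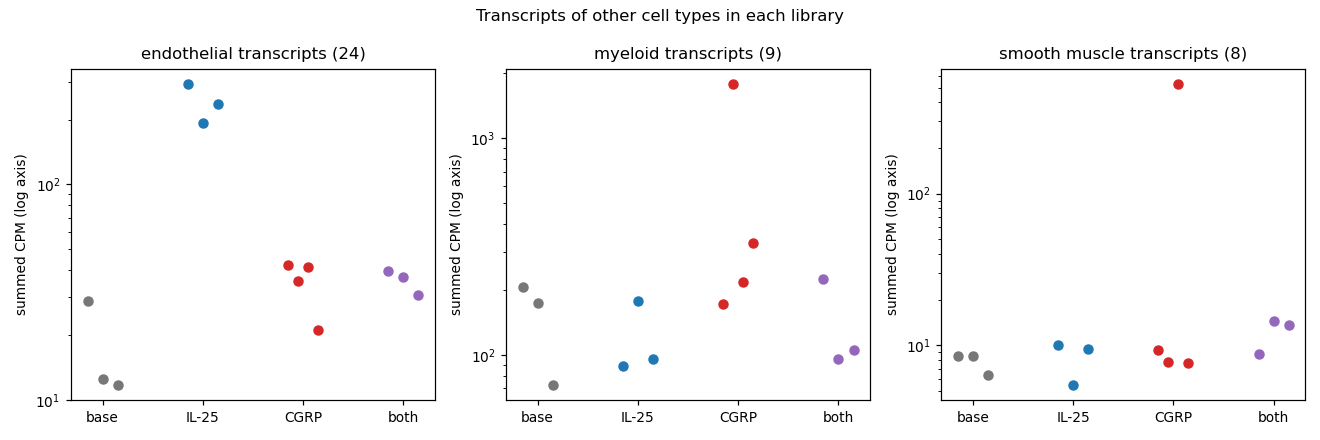
Summed CPM (log axis) of 24 endothelial, 9 myeloid and 8 smooth muscle genes in each library, by group, each point being 1 library. The 3 IL-25 libraries sit between 193 and 294 CPM on the endothelial panel, above all other libraries, and 1 CGRP library stands out on each of the other panels.

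IL-25 and CGRP left 349 of 12618 tested genes at different levels (2.77%; edgeR's quasi-likelihood test, Benjamini-Hochberg adjusted p under 0.05). Of these, 164 were higher with IL-25 (1.3% of the genes tested) and 185 were higher with CGRP (1.47%). Genes called higher with IL-25 included the cytokine genes Il13 and Il9 and the IL-2 receptor chain Il2ra, and those called higher with CGRP included Tgm2, Ramp3, Crem and Pdcd1. All differences below are log2 values of IL-25 minus CGRP, so that a positive value means higher with IL-25. Without the TMM factors, which correct library totals for differences in RNA composition, the median of all genes moved from -0.01 to 0.17 and the share of calls that were higher with IL-25 rose from 47.0% to 64.0%. Leaving out IL-25 library 1 left 176 calls (92 higher with IL-25, 84 with CGRP), and leaving out IL-25 library 3 left 197 (101 and 96). In all, 135 of the 349 calls were made in the full comparison and without each of the 13 libraries in turn. Each gene called below is among these unless a library is named beside it. Libraries of the groups were fully separate for 1540 genes (12.2%), with IL-25 higher in 810 (6.42%) and CGRP higher in 730 (5.79%).

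**Figure D2:**
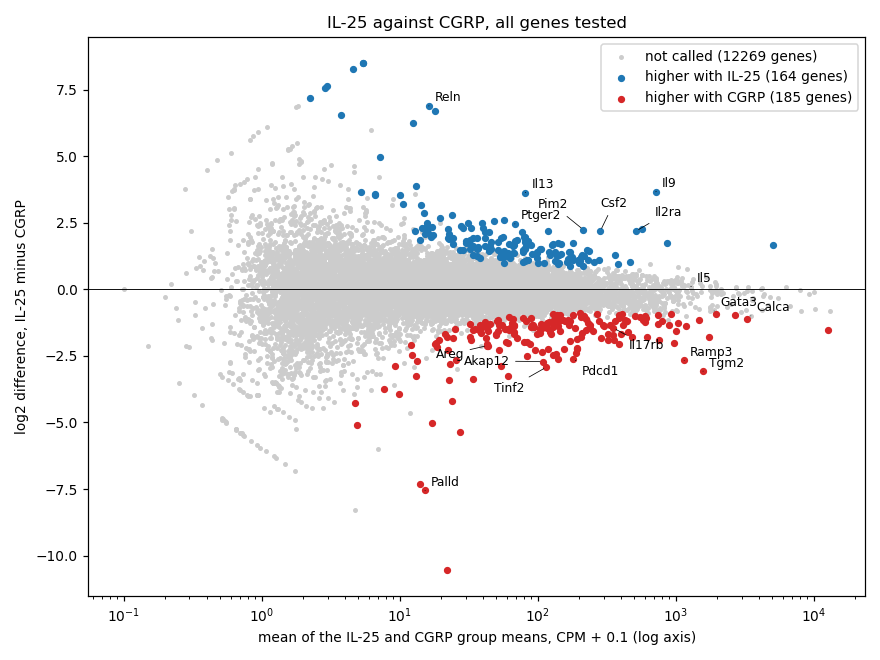
Log2 difference (IL-25 minus CGRP) of each of the 12618 tested genes against the mean of both group means in CPM plus 0.1 (log axis), with the 164 genes higher with IL-25 in blue and the 185 higher with CGRP in red. Il13 (3.63) and Il9 (3.66) lie far above 0, Tgm2 (-3.07) and Ramp3 (-2.67) far below it, and Il5 (0.10) lies near 0.

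Promoters were searched for binding motifs of factors downstream of the receptors, and 4 genes with a match among those described below are shown because they place a full cAMP response element or a kB element close to the start of a gene that differed. Each line gives the 150 bases before the RefSeq gene start (build GRCm38.p6), 5′ to 3′ on the strand of the gene, with the motif in capitals. Areg lies on the plus strand at chr5:91139449-91139598 and Tinf2 on the minus strand at chr14:55681818-55681967, and both hold TGACGTCA, the full cAMP response element, 61 and 56 bases before the start. Il9 lies on the minus strand at chr13:56482258-56482407 and Il6 on the plus strand at chr5:30012964-30013113, and both hold a kB element, 54 and 44 bases before the start.
Areg: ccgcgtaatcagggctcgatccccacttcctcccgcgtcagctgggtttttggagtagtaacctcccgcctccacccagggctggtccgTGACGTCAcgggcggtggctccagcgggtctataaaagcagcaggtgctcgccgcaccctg
Tinf2: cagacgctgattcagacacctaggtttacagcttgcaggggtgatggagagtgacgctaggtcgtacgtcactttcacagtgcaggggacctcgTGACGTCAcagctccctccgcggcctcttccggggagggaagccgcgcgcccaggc
Il9: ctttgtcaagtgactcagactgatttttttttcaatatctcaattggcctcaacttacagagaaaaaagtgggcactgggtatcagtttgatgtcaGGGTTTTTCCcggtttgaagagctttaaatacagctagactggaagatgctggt
Il6: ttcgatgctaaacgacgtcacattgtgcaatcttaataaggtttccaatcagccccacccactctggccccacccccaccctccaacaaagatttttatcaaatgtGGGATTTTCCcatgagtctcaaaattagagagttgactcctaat

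Counted over windows of 300 bases (250 before to 50 after the start, both strands), TGACGTCA was held by 7 of the 143 genes higher with CGRP that had a promoter in the RefSeq table (4.9%), by 2 of the 131 higher with IL-25 (1.53%) and by 358 of the 10008 tested genes with a promoter (3.58%). The 7 genes were Areg, Tinf2, Dusp1, Btg2, Stk38l, Osbpl9 and Tubb2a, and the 2 were Thada and Ppan. The kB element searched reads GGG, any 2 bases, then TTTCC. It was held by 5 of the 131 genes higher with IL-25 (3.82%), namely Il9, Il6, Ltb, Cpd and Serpina3g, by Tnfrsf9 alone of the 143 higher with CGRP (0.699%), and by 2.06% of all. The shorter cAMP element TGACG, which the full element contains, was held by 35.7% of the genes higher with CGRP, 36.6% of those higher with IL-25 and 34.8% of all. The AP-1 element TGANTCA was held by 9.79%, 6.11% and 6.45% in the same order, and the STAT element TTCNNNGAA by 7.69%, 9.92% and 8.57%. No test was made of these shares, and a match is a description of the letters in the window. The genes named only for a motif were chosen after their values were seen. Of these, Stk38l lost its call without IL-25 library 1 or 3 or CGRP library 1, 2, 3 or 4 or base medium library 1, 2 or 3 (adjusted p from 0.05 to 0.259) and Osbpl9 without IL-25 library 1 or 3 or CGRP library 1 or 3 (adjusted p from 0.0633 to 0.155).

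Ramp3 and Il17rb, a chain of receptors for the CGRP peptide family and the chain that binds IL-25, were both higher with CGRP. Ramp3, an accessory protein that turns CALCRL into an adrenomedullin receptor, lay at 286, 432 and 219 CPM with IL-25 and at 1858, 2252, 1818 and 2026 CPM with CGRP. All 4 CGRP libraries stood above all IL-25 libraries (log2 difference -2.67, SE 0.29, adjusted p = 7.79e-06), and base medium lay at 287 to 422 CPM, within the IL-25 range. Il17rb lay at 200.3, 204 and 163 CPM with IL-25 and at 572, 496, 566 and 439 CPM with CGRP. The groups did not overlap (log2 difference -1.45, SE 0.23, adjusted p = 0.000475), and base medium lay between them at 256 to 325 CPM. Against base medium neither difference of Il17rb was called: it was -0.62 with IL-25 (adjusted p = 1) and 0.83 with CGRP (adjusted p = 0.0645). The counting is not stated to use strand, and where exons of a gene lie across those of a gene on the opposite strand their reads cannot be told apart. Among the genes described this holds for Il17rb (with Actr8), Tinf2 (Gmpr2), Stat5a (Stat3), Dusp1 (Ergic1), Dnaja1 (Smu1), Gapdh (Iffo1), Osbpl9 (Nrd1), Tgm2 (Rprd1b and another) and Foxp3 (Ccdc22 and others), and, with predicted or noncoding genes, for Adam8, Ahr, Bcl3, Cdk6, Crem, Csf2, Gadd45a, Gata3, Gpr65, Grwd1, Hif1a, Il5, Ptger2, Reln, Tnfrsf18 and Tox.

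The other receptor chains of both stimuli passed no test. Calcrl lay at 25.6 to 37.6 CPM with IL-25 and at 13.5 to 30.6 CPM with CGRP (log2 difference 0.33, 95% interval -0.58 to 1.24). Ramp1 lay at 16.9 to 38.0 and 15.9 to 44.2 CPM (log2 difference -0.45, 95% interval -1.31 to 0.40). Il17ra, the shared signalling chain, lay at 69.8 to 102 and 61.2 to 95.6 CPM (log2 difference 0.07, 95% interval -0.50 to 0.64), a sign that turned without IL-25 library 3 or CGRP library 3. Calca, the gene that encodes α-CGRP itself and that these cells express, lay at 2050, 3213 and 1729 CPM with IL-25 and at 4224, 6859, 2986 and 4557 CPM with CGRP. The groups overlapped and the difference missed the threshold (log2 difference -0.998, SE 0.30, adjusted p = 0.0758), although it was called by DESeq2 (adjusted p = 0.0163), without a filter on low counts, and without IL-25 library 2 or CGRP library 3 or combination library 2 (adjusted p = 0.0282, 0.033 and 0.0486).

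Among 18 tested receptors for neuropeptides, adrenergic agents, prostanoids and adenosine, 3 were higher with CGRP and 1 with IL-25, beside 1.47% and 1.3% of all genes. Without TMM factors there were 2 in each direction. Adora2a, an adenosine receptor that also raises cAMP, lay at 68.8 to 95.4 CPM with IL-25 and 125 to 271 CPM with CGRP (log2 difference -1.38, adjusted p = 0.00478). Ptger2, a prostaglandin E2 receptor that raises cAMP too, went the other way, with 102, 145 and 99.3 CPM under IL-25 and 22.7, 6.55, 23.9 and 30.8 CPM under CGRP (log2 difference 2.46, SE 0.36, adjusted p = 0.000212). Every IL-25 library of Ptger2 was above base medium, at 50.5 to 57.3 CPM, and every CGRP library below it.

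Of 17 tested members of the list of type 2 cytokines and other ILC2 products, 4 were higher with IL-25 (Il13, Il9, Csf2 and Tph1) and 2 with CGRP (Areg and Bmp2), beside 1.3% of all genes higher with IL-25 and 1.47% higher with CGRP. The calls on both sides include products that are not type 2 cytokines, such as Tph1, Areg and Bmp2. Without TMM factors the counts were 4 and 1. Il13, which drives goblet cell mucus and smooth muscle responses, lay at 100.2, 179.6 and 172 CPM with IL-25 and at 8.03, 20.5, 12.1 and 7.95 CPM with CGRP. Every IL-25 library stood at least 4 times above every CGRP library (log2 difference 3.63, SE 0.37, adjusted p = 4.96e-06). Base medium lay at 16.6 to 29.4 CPM, and the combination at 40.9 to 67.9 CPM, between the stimuli. Il9, a growth factor for mast cells and ILC2s, lay at 901, 1874 and 1211 CPM with IL-25 and at 34.9, 69.0, 123 and 194 CPM with CGRP. The groups were again apart (log2 difference 3.66, SE 0.49, adjusted p = 5.65e-05), and the combination, at 1196 to 1584 CPM, lay within the IL-25 range. Csf2, which encodes GM-CSF, lay at 391, 679.8 and 327 CPM with IL-25 and at 97.1 to 116 CPM with CGRP (log2 difference 2.19, SE 0.33, adjusted p = 0.000283). Tph1, the enzyme that begins serotonin synthesis outside the brain, lay at 118 to 147 CPM with IL-25 and 22.9 to 41.8 CPM with CGRP (log2 difference 1.95, adjusted p = 0.000141).

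Areg, which encodes the epithelial repair factor amphiregulin, was called on the CGRP side. It lay at 14.9, 19.0 and 14.7 CPM with IL-25 and at 76.3, 43.0, 81.2 and 79.7 CPM with CGRP, with CGRP library 2 lowest of its group. All CGRP libraries stood above all IL-25 libraries (log2 difference -2.11, SE 0.33, adjusted p = 0.000444), base medium lay at 17.9 to 28.7 CPM and the combination at 68.6 to 95.5 CPM. Bmp2, a morphogen of the BMP family, was the other CGRP call of the list (log2 difference -1.78, adjusted p = 0.0165) and was lost without IL-25 library 1 or 2 (adjusted p from 0.0964 to 0.104). Il5, the eosinophil growth factor, did not separate the stimuli. It lay at 871, 1760 and 1361 CPM with IL-25 and at 1158, 1268, 1628 and 917 CPM with CGRP (log2 difference 0.10, 95% interval -0.42 to 0.62). Beside base medium, at 275 to 288 CPM, it rose with IL-25 by 2.24 (adjusted p = 0.000551) and with CGRP by 2.14 (adjusted p = 7.53e-05), and these contrasts share the base medium libraries. The combination lay at 3546 to 4255 CPM, above every library of either stimulus alone. Il4, the other classical type 2 cytokine, lay at 23.2 to 50.5 CPM with IL-25 and at 26.6 to 41.4 CPM with CGRP (log2 difference 0.10, 95% interval -0.66 to 0.87).

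Among 19 tested members of the list of other cytokines, 2 were higher in each direction. Of all genes 1.3% were higher with IL-25 and 1.47% with CGRP. Without TMM factors the list had 2 calls with IL-25 and 1 with CGRP. Il6, a pleiotropic inflammatory cytokine, lay at 45.5, 81.9 and 43.8 CPM with IL-25 and at 6.33, 9.42, 25.9 and 18.1 CPM with CGRP. The groups did not overlap (log2 difference 1.94, SE 0.43, adjusted p = 0.0109), but the call ended without IL-25 library 2 (adjusted p = 0.093). Ltb, which encodes lymphotoxin beta, lay at 239 to 346 CPM with IL-25 and at 95.4 to 155 CPM with CGRP (log2 difference 1.20, adjusted p = 0.00529). Base medium lay at 212 to 303 CPM, and the difference of CGRP from it was -1.11 (adjusted p = 0.0191). Osm, which encodes oncostatin M, went the other way, with 48.8 to 81.6 CPM under IL-25 and 141 to 197 CPM under CGRP (log2 difference -1.27, adjusted p = 0.0227). That call ended without IL-25 library 1 or 3 or CGRP library 3 or 4 (adjusted p from 0.055 to 0.173). Jag1, a Notch ligand, was also called higher with CGRP (log2 difference -1.34, adjusted p = 0.042) and was lost without IL-25 library 1, 2 or 3 or CGRP library 1, 3 or 4 (adjusted p from 0.0639 to 0.178).

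**Figure D3:**
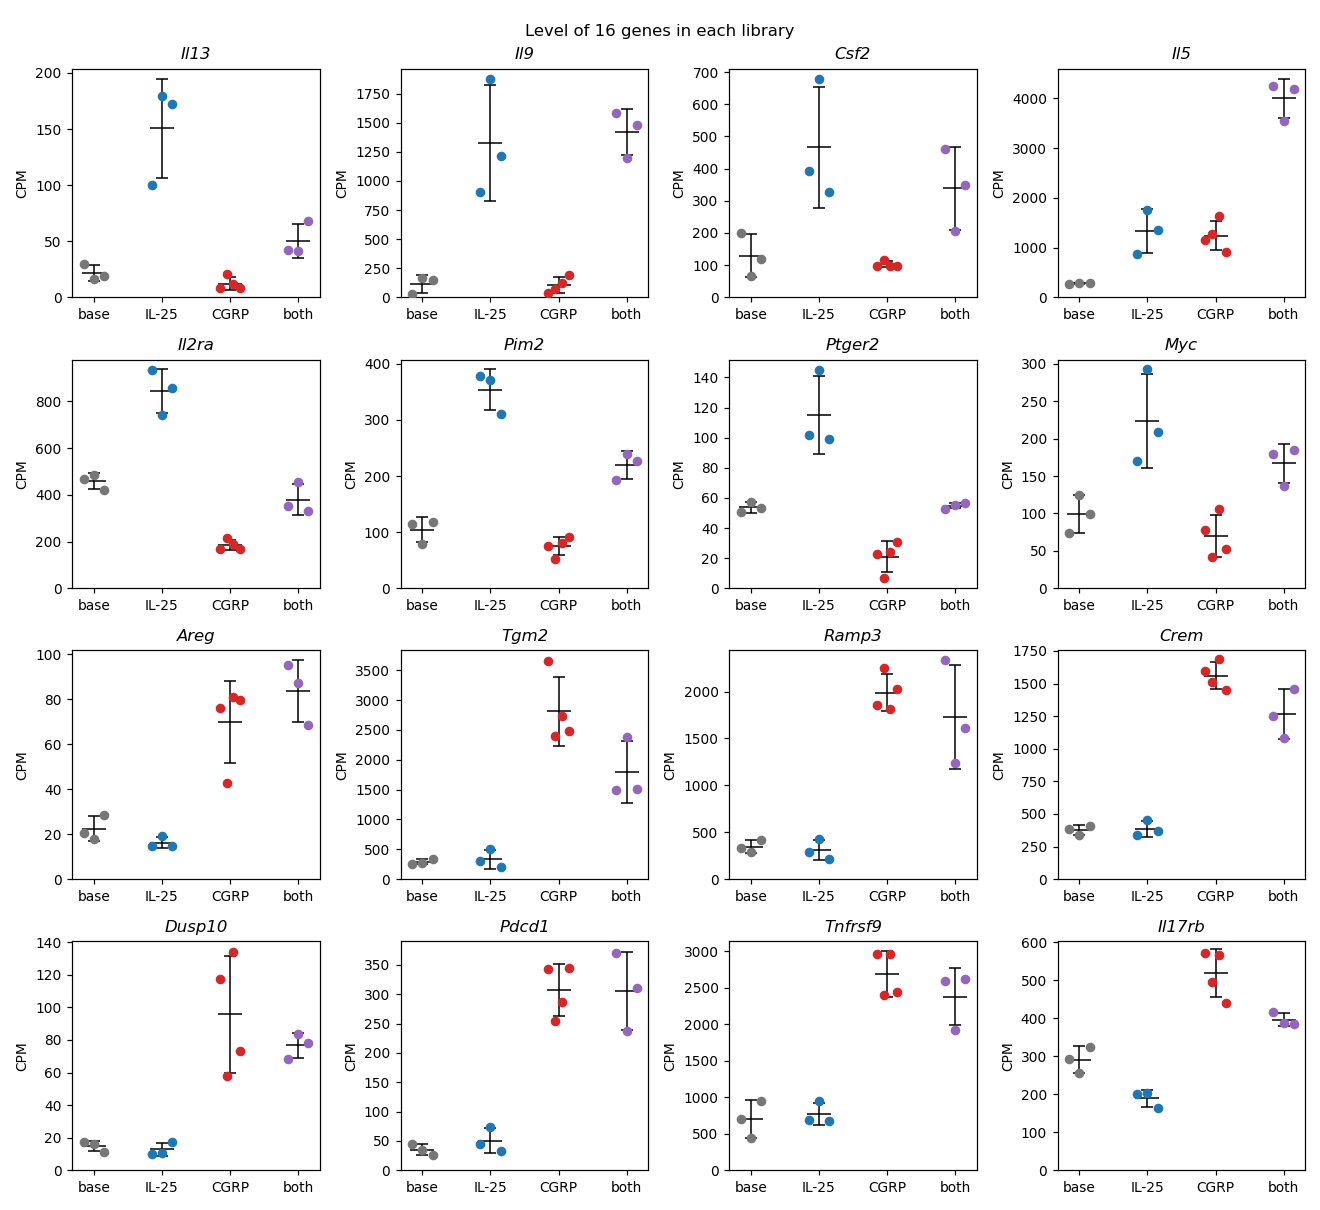
CPM of 16 genes in each library by group (base medium, IL-25, CGRP and both), with points for libraries, horizontal bars for means and error bars for 1 SD over 3 or 4 libraries, each panel starting at 0. Il13 is at 100.2 to 179.6 CPM with IL-25 against 7.95 to 20.5 CPM with CGRP, Ramp3 shows the reverse at 219 to 432 against 1818 to 2252 CPM, and Il5 overlaps between them and is higher with both together.

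Of 50 tested genes of the cAMP pathway, its targets and its brakes, 3 were higher with CGRP and none with IL-25, beside 1.47% and 1.3% of all genes. The list's median difference of -0.12 turned to 0.05 without TMM factors, beside medians of -0.01 and 0.17 over all genes. Crem, a cAMP-responsive gene whose short product ICER represses further cAMP-driven transcription, lay at 337, 453 and 370.2 CPM with IL-25 and at 1594, 1512, 1686 and 1454 CPM with CGRP. All CGRP libraries lay above all IL-25 libraries (log2 difference -2.01, SE 0.24, adjusted p = 1.36e-05). Pde4b, a phosphodiesterase that degrades cAMP, lay at 101 to 146 CPM with IL-25 and at 196 to 466 CPM with CGRP (log2 difference -1.56, adjusted p = 0.00211). Creb3l2, a membrane-bound factor of the CREB3 family, lay at 43.8 to 63.9 CPM with IL-25 and 95.7 to 236 CPM with CGRP (log2 difference -1.49, adjusted p = 0.00492).

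Of 16 tested MAP kinase phosphatases and feedback genes 2 were higher with CGRP and none with IL-25, beside 1.47% and 1.3% of all genes. Dusp10, a phosphatase that inactivates p38 and JNK, lay at 10.1, 10.7 and 17.6 CPM with IL-25 and at 118, 57.8, 134 and 73.2 CPM with CGRP. This was the larger of the 2 differences (log2 difference -2.88, SE 0.37, adjusted p = 4.24e-05). The other was Dusp1, a phosphatase of the same family, at 15.9 to 21.2 CPM with IL-25 and 59.3 to 75.9 CPM with CGRP (log2 difference -1.83, adjusted p = 0.00378). Rgs2, which shortens signalling by Gq-coupled receptors, lay at 49.3 to 60.2 CPM with IL-25 and 209.5 to 292 CPM with CGRP (log2 difference -2.24, adjusted p = 1.36e-05). Of 18 tested genes for regulators of G protein signalling and receptor desensitisation 2 were higher with CGRP and none with IL-25. The shares over all genes were 1.47% and 1.3%. Besides Rgs2 the other call was Rgs1 (log2 difference -1.14, adjusted p = 0.00503), which was lost without IL-25 library 1 (adjusted p = 0.0518). Akap12, which is on neither list, a scaffold that binds protein kinase A, lay at 30.9, 34.3 and 21.7 CPM with IL-25 and at 173, 201, 158 and 224 CPM with CGRP (log2 difference -2.71, SE 0.32, adjusted p = 1.36e-05).

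Of 33 tested immediate early and AP-1 genes 5 were higher with CGRP and 4 with IL-25, beside 1.47% and 1.3% of all genes. Without TMM factors the counts turned to 3 and 5. Fos, a subunit of AP-1, lay at 11.4, 11.8 and 51.1 CPM with IL-25 and at 119, 110.4, 159.7 and 182 CPM with CGRP (log2 difference -2.49, adjusted p = 0.00112). IL-25 library 3 stood well above the other IL-25 libraries, and without it the difference was -3.60. Each of the other calls on the CGRP side was lost without 1 or more of the libraries, taken singly. Fosl2, an AP-1 subunit, was called at -0.97 (adjusted p = 0.0362) and was lost without IL-25 library 1, 2 or 3 or CGRP library 1, 2, 3 or 4 or base medium library 2 or combination library 3 (adjusted p from 0.0537 to 0.169). Nr4a2, an orphan nuclear receptor, was lost without IL-25 library 1 or 2 (adjusted p from 0.0831 to 0.108), and without IL-25 library 3 its difference moved from -1.91 to -2.58. Btg2, an antiproliferative gene, was called at -1.14 (adjusted p = 0.0109) and was lost without IL-25 library 1 or 3 (adjusted p from 0.0623 to 0.111). Klf6, a zinc finger factor, was called at -0.97 (adjusted p = 0.0347) and was lost without IL-25 library 1 or 3 or CGRP library 2 or 4 or base medium library 2 or 3 or combination library 3 (adjusted p from 0.0512 to 0.232). Where their calls were lost on leaving out 1 library, the differences were -0.89 to -1.09 for Fosl2, -0.84 to -0.97 for Klf6 and -1.03 to -1.15 for Btg2. On the IL-25 side Batf, an AP-1 partner of IRF4, lay at 159, 244 and 174 CPM with IL-25 and at 44.3, 109, 40.1 and 47.4 CPM with CGRP, where library 2 was the high one (log2 difference 1.68, adjusted p = 0.00472). Ier5, a growth and stress response gene, lay at 179.7 to 216 and 68.2 to 104 CPM (log2 difference 1.27, adjusted p = 0.00614).

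The IL-17 receptor and NF-kB list had 3 of 42 tested members higher with IL-25 and 1, Il17rb, higher with CGRP, beside 1.3% and 1.47% of all genes. Without TMM factors 6 were higher with IL-25 and 1 with CGRP. Nfkbiz, an atypical IkB protein that acts with NF-kB in the nucleus, lay at 618 to 634 CPM with IL-25 and at 249 to 372 CPM with CGRP (log2 difference 1.04, SE 0.22, adjusted p = 0.00733). Bcl3, another nuclear IkB protein, lay at 45.0 to 55.1 CPM with IL-25 and at 7.97 to 21.1 CPM with CGRP (log2 difference 1.84, adjusted p = 0.00614). Irf4, a factor of activated lymphocytes, was called (log2 difference 1.47, adjusted p = 0.00816) but not without IL-25 library 1 (adjusted p = 0.0608). Nfkbia, the IkB-alpha gene that NF-kB itself induces, had separate groups at 724 to 1110 CPM and 244 to 585 CPM and missed the threshold (log2 difference 0.96, adjusted p = 0.093). It was called by DESeq2, without TMM factors, without a filter on low counts and without CGRP library 2 (adjusted p from 0.016 to 0.0458). Most of the list passed no test.

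IL-2 and IL-7, present in all cultures, signal through STAT5. Of 26 tested STAT5 feedback, Pim and BCL2 family genes 2 were higher with IL-25 (Pim2 and Stat5a), 1 was higher with CGRP (Socs2), beside 1.3% and 1.47% of all genes, and the others were not called. Without TMM factors the counts were 3 and 1. Il2ra, the high-affinity chain of the IL-2 receptor, lay at 934, 743 and 858 CPM with IL-25 and at 169.5, 215, 188 and 169.7 CPM with CGRP. Base medium lay between them at 421 to 487 CPM and overlapped neither (log2 difference 2.19, SE 0.23, adjusted p = 4.96e-06). Against base medium the difference of -1.31 with CGRP was called (adjusted p = 0.00189), and the difference of 0.88 with IL-25 was not (adjusted p = 0.496). Pim2, a survival kinase induced by STAT5, lay at 378, 372 and 311 CPM with IL-25 and at 76.0, 52.8, 80.4 and 91.7 CPM with CGRP (log2 difference 2.23, SE 0.25, adjusted p = 1.15e-05). Stat5a itself lay at 104 to 151 CPM with IL-25 and 30.2 to 51.8 CPM with CGRP (log2 difference 1.82, adjusted p = 0.00385). Socs2, a feedback inhibitor that STAT5 induces, was higher with CGRP, at 409.5 to 483 CPM against 148 to 203 CPM (log2 difference -1.39, adjusted p = 0.00148).

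Of 24 tested receptors and ligands that restrain or costimulate lymphocytes, 4 were higher with CGRP and none with IL-25, beside 1.47% and 1.3% of all genes. The libraries were fully separate for 6 members higher with CGRP and for 4 higher with IL-25, beside 5.79% and 6.42% of all genes. Pdcd1, the gene of the checkpoint receptor PD-1, lay at 44.0, 73.8 and 32.5 CPM with IL-25 and at 342, 255, 287 and 345 CPM with CGRP. The CGRP libraries were at least 3 times above every IL-25 library (log2 difference -2.63, SE 0.31, adjusted p = 1.36e-05). Tnfrsf9, the costimulatory receptor 4-1BB, lay at 687, 951 and 671 CPM with IL-25 and at 2960, 2401, 2970 and 2443 CPM with CGRP (log2 difference -1.81, SE 0.27, adjusted p = 0.000283). Tnfrsf18, which encodes GITR, lost its call without IL-25 library 1 or 3 (adjusted p from 0.0786 to 0.0878). Cd200r1, an inhibitory receptor, lost it without IL-25 library 3 (adjusted p = 0.0557). Among 27 tested cytokine receptors Il2ra was the 1 call with IL-25, and Il17rb, Ifngr1 and Csf2rb2 were the 3 with CGRP. The shares over all genes were 1.3% and 1.47%. Ifngr1, the interferon gamma receptor, lay at 537 to 651 CPM with IL-25 and 906 to 1890 CPM with CGRP, and its call ended without IL-25 library 3 (adjusted p = 0.0557). Csf2rb2, the IL-3 receptor beta chain, lost its call without IL-25 library 1, 2 or 3 or CGRP library 2 (adjusted p from 0.0611 to 0.0934).

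Among 22 tested chemokines and chemokine receptors 1 was higher with IL-25 and 2 with CGRP, beside 1.3% and 1.47% of all genes. Without TMM factors there were 2 in each direction. Ccr8, a receptor of type 2 lymphocytes for CCL1, lay at 121, 225 and 109 CPM with IL-25 and at 506, 592, 407 and 451 CPM with CGRP (log2 difference -1.69, SE 0.28, adjusted p = 0.000719). Ccr4, the receptor for CCL17 and CCL22, lay at 409 to 574 CPM with IL-25 and at 119.6 to 381 CPM with CGRP (log2 difference 1.29, adjusted p = 0.0216). Its call ended without IL-25 library 1 or 2 or CGRP library 1, 3 or 4 (adjusted p from 0.0672 to 0.112). Ccrl2, an atypical chemokine receptor, was the other call with CGRP (log2 difference -1.66, adjusted p = 0.00682), and it was lost without IL-25 library 1 (adjusted p = 0.0736).

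Transcription factors of lymphocyte lineages gave 3 calls with IL-25 and 2 with CGRP among 30 tested, beside 1.3% and 1.47% of all genes. Ahr, the aryl hydrocarbon receptor that gut ILC2s express, lay at 366, 223 and 252 CPM with IL-25 and at 62.1 to 103 CPM with CGRP (log2 difference 1.75, SE 0.31, adjusted p = 0.00165). Ikzf3, which encodes Aiolos, lay at 179.5 to 247 CPM with IL-25 and at 746, 729, 768 and 488 CPM with CGRP (log2 difference -1.61, adjusted p = 0.000498). Tox, a factor of early ILC development, lay at 45.0 to 77.5 CPM with IL-25 and at 154 to 235 CPM with CGRP (log2 difference -1.59, adjusted p = 0.000939). Foxp3, the factor of regulatory T cells, was low, at 19.7 to 33.4 CPM with IL-25 and 0.431 to 6.02 CPM with CGRP (log2 difference 3.17, adjusted p = 0.00603), and without CGRP library 1 the difference was 3.93. Foxp3 is one of the 9 T cell markers whose sums are given above, and the part of such cells in its difference was not tested. Ikzf1, which encodes Ikaros, was the remaining call (log2 difference 1.16, adjusted p = 0.0241) and was lost without IL-25 library 1 or CGRP library 1 or 4 (adjusted p from 0.0573 to 0.191). Gata3, the master regulator of ILC2s, had separate groups at 1193 to 1610 CPM with IL-25 and 2110 to 2748 CPM with CGRP, as 12.2% of all genes had, but missed the threshold (log2 difference -0.82, SE 0.24, adjusted p = 0.0758). It was called by DESeq2 (adjusted p = 0.00632) and without combination library 2 (adjusted p = 0.0438). Against base medium Gata3 was called higher with CGRP and was not called with IL-25.

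The list of ribosome biogenesis and Myc target genes gave the highest share of calls among the lists. Of its 32 tested members 15 were higher with IL-25, beside 1.3% of all genes, and none with CGRP. Not all members act in ribosome biogenesis, and Srm and Mat2a, listed as Myc targets, were among the 15. The 3 IL-25 libraries lay above the 4 CGRP libraries for 23 of the 32, beside 6.42% of all genes, and the list's median difference was 0.85 beside -0.01 over all genes. Myc, the transcription factor after which part of the list was chosen, is not a member. It lay at 169.9, 293 and 209 CPM with IL-25 and at 78.4, 42.0, 105 and 52.7 CPM with CGRP (log2 difference 1.68, SE 0.30, adjusted p = 0.00167). Against base medium Myc was not called with either agent, and its part in the differences of the list was not tested. Polr1b, a subunit of RNA polymerase I, lay at 81.8, 58.0 and 63.9 CPM with IL-25 and at 17.8, 18.8, 9.48 and 14.9 CPM with CGRP (log2 difference 2.15, SE 0.32, adjusted p = 0.000283). For Polr1b the lowest IL-25 library was at the level of base medium, which lay at 57.7 to 58.9 CPM. Rrp12, which acts in the nuclear export of ribosomal subunits, lay at 50.3 to 82.0 CPM with IL-25 and 7.95 to 18.7 CPM with CGRP (log2 difference 2.28, adjusted p = 0.00033). Nop16, a nucleolar protein, lay at 102 to 151 CPM and 27.2 to 39.4 CPM (log2 difference 1.96, adjusted p = 0.000475).

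Beside base medium 6 of the 32 list members were called lower with CGRP (Polr1b, Rrp12, Nop16, Utp20, Noc2l and Cad) and none higher, and none was called with IL-25. The differences of CGRP from base medium were -1.93 for Polr1b (adjusted p = 0.00155), -1.88 for Rrp12 (adjusted p = 0.00388) and -1.58 for Nop16 (adjusted p = 0.00673), and 0.388% of all genes were called lower. The differences of IL-25 from base medium were 0.22, 0.40 and 0.38 for these genes (adjusted p = 1, 1 and 1), and both contrasts share the base medium libraries. Utp20, a scaffold of the small subunit processome, lay at 39.5 to 53.6 CPM with IL-25 and at 4.94, 4.92, 21.1 and 4.57 CPM with CGRP, where library 3 was highest. Its difference was 2.39, or 3.27 without CGRP library 3. Nat10, an RNA acetyltransferase, and Grwd1, a ribosome assembly factor, stood outside the list and were also among the 15 largest differences on the IL-25 side (2.50 and 2.58). Leaving out 1 library left between 10 and 16 calls in the list, the lowest without IL-25 library 2 or 3, and 8 of the 15 were called without each of the 13 libraries. Without TMM factors the list had 20 calls and a median of 1.03.

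Of 27 tested glycolysis and hypoxia response genes 3 were higher with CGRP and none with IL-25, beside 1.47% and 1.3% of all genes. The list's median difference was -0.50 (-0.31 without TMM factors), beside medians of -0.01 and 0.17 over all genes. Egln3, an oxygen-sensing prolyl hydroxylase, lay at 25.6 to 51.3 CPM with IL-25 and at 144 to 338 CPM with CGRP (log2 difference -2.46, adjusted p = 0.000351). Hif1a, a subunit of the hypoxia-inducible factor (log2 difference -1.01, adjusted p = 0.0109), lost its call without IL-25 library 1 or 3 (adjusted p from 0.0614 to 0.0741). Gapdh, a glycolytic enzyme, lay at 1217 to 1467 CPM against 2290 to 2756 CPM and lost its call without IL-25 library 1 or 3 or CGRP library 1, 2 or 4 or base medium library 2 or 3 (adjusted p from 0.0521 to 0.213). Of 24 tested heat shock and unfolded protein response genes 3 were higher with CGRP (2 without TMM factors), beside 1.47% of all genes. Dnaja1, a co-chaperone of HSP70, was among the 3. It lay at 294 to 412 CPM with IL-25 and at 769 to 959.9 CPM with CGRP (log2 difference -1.23, adjusted p = 0.00211). Of 22 tested cholesterol and fatty acid synthesis genes 2 were higher with IL-25, beside 1.3% of all genes. These 2 were Fasn, the fatty acid synthase, and Acaca, which makes its substrate. Fasn lost the call without IL-25 library 1 (adjusted p = 0.104) and Acaca without IL-25 library 3 (adjusted p = 0.0839).

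**Figure D4:**
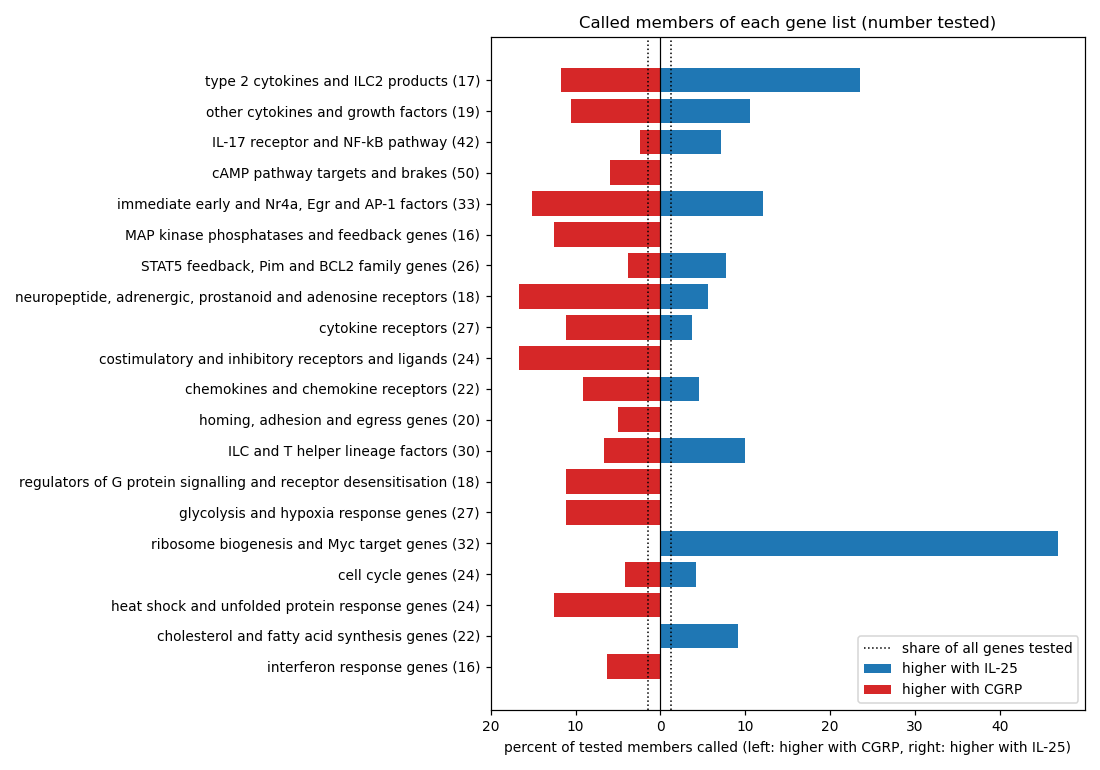
Percent of the tested members of each gene list called higher with CGRP (red, to the left) or with IL-25 (blue, to the right), with the number tested in brackets and dotted lines at the share over all genes tested. The list of ribosome biogenesis and Myc target genes reaches furthest, with 15 of 32 higher with IL-25. The costimulatory and inhibitory receptors have 4 of 24 called higher with CGRP and none with IL-25, beside 1.47% and 1.3% of all genes.

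The remaining lists gave few calls, beside 1.3% of all genes higher with IL-25 and 1.47% higher with CGRP. Cell cycle genes had 1 in each direction of 24 tested. Cdk6, a G1 kinase, was higher with IL-25 and was lost without IL-25 library 1 or 2 or CGRP library 4 (adjusted p from 0.0652 to 0.102), and Cdkn1a, the inhibitor p21, was higher with CGRP and was lost without IL-25 library 1 (adjusted p = 0.139). Homing and adhesion genes had 1 of 20, Gpr65, a proton-sensing receptor, higher with CGRP and lost without IL-25 library 1 (adjusted p = 0.112). Interferon response genes had 1 of 16, Ifit1, an antiviral gene, higher with CGRP with overlapping groups (log2 difference -3.40, adjusted p = 0.0161). It was lost without IL-25 library 1 or 3 or CGRP library 1 (adjusted p from 0.0873 to 0.111), and without IL-25 library 2 its difference was -5.37.

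Several large differences lay outside these lists. Tgm2, tissue transglutaminase, which crosslinks proteins, lay at 302, 504 and 197 CPM with IL-25 and at 3657, 2393, 2729 and 2484 CPM with CGRP. It was 8.42-fold higher with CGRP (log2 difference -3.07, SE 0.32, adjusted p = 4.96e-06), with base medium at 260 to 339 CPM. Tinf2, part of the shelterin complex at telomeres, lay at 22.9, 41.5 and 17.0 CPM with IL-25 and at 231, 217, 203 and 165 CPM with CGRP (log2 difference -2.92, SE 0.34, adjusted p = 1.36e-05). Palld, an actin-bundling protein, had 2 counts in the 3 IL-25 libraries together and 626 in the CGRP libraries, a ratio of 237 with a 95% counting interval of 65.2 to 1958. Plaur, the urokinase receptor, lay at 2.88 to 7.62 CPM with IL-25 and at 54.3 to 73.0 CPM with CGRP (log2 difference -3.36, SE 0.51, adjusted p = 0.000339). Adam8, a membrane protease, lay on the IL-25 side at 76.7 to 88.2 CPM against 9.42 to 18.8 CPM (log2 difference 2.57, SE 0.38, adjusted p = 0.000212).

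Leaving out 1 library changed the size or the call of other large differences. Nkx2-3, a homeobox factor of gut-associated tissue, lay at 0, 0 and 2.37 CPM with IL-25 and at 19.3 to 40.3 CPM with CGRP (log2 difference -5.03, adjusted p = 0.00434). All of its 19 IL-25 counts were in IL-25 library 3, and without that library it was at least 76.7-fold higher with CGRP, against a floor of 3 counts over the group. Gadd45a, a stress response gene, had a difference of -2.79, or -3.91 without IL-25 library 3. Dppa2, a pluripotency-associated gene, lost its call without IL-25 library 1 or 3 (adjusted p from 0.0912 to 0.106), and its difference moved from -3.25 to -5.36 without IL-25 library 2. Ccdc109b, a subunit of the mitochondrial calcium uniporter, lost it without IL-25 library 1 or 3 or CGRP library 2 or 4 (adjusted p from 0.0713 to 0.147). Map9, a microtubule-associated protein, lost it without IL-25 library 2 or 3 (adjusted p from 0.0784 to 0.119), and without IL-25 library 1 its difference moved from -2.66 to -3.49.

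Among called genes with separate groups and at least 20 CPM in the higher group, the 4 largest differences on the IL-25 side belong to the endothelial genes described above, with Reln at 6.88, Sdpr at 6.69, Lyve1 at 6.24 and Mmrn1 at 3.88. Lyve1, a hyaluronan receptor of lymphatic vessels, lay at 27.2, 11.8 and 33.96 CPM with IL-25 and at or under 0.614 CPM in the CGRP libraries (adjusted p = 0.000988). Reln had 480 counts over the IL-25 libraries, and without CGRP library 2 the CGRP libraries held 2, a ratio of 241 with a 95% counting interval of 66.2 to 1992. All 7 CGRP counts of Sdpr were in CGRP library 1, and without that library it was at least 160.4-fold higher with IL-25, against the same floor. Mmrn1 lost its call without IL-25 library 1 (adjusted p = 0.0902) and had a difference of 5.03 without CGRP library 1. Pecam1, an adhesion molecule that leukocytes share with endothelium, lay at 142 to 173 CPM with IL-25 and 47.7 to 62.7 CPM with CGRP (log2 difference 1.497, adjusted p = 0.000882). On the CGRP side Cd14, a myeloid receptor, had 2 counts over the IL-25 libraries and 518 over the CGRP libraries, whose levels were 3.86, 67.4, 2.8 and 36.4 CPM. The ratio was 196 with a 95% counting interval of 53.9 to 1621, and without CGRP library 2 it was 94.3 with an interval of 25.7 to 784. Both IL-25 counts were in IL-25 library 1, without which Cd14 was at least 98.3-fold higher with CGRP, and the call was lost without IL-25 library 3 (adjusted p = 0.0691).

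Base medium and the combination were then placed against both stimuli. Of the 164 genes higher with IL-25, the base medium mean on the log2(CPM + 1) scale lay between and nearer IL-25 in 104 (63.4%). It lay between and nearer CGRP in 44, above both in 13 and below both in 3. Among all 6447 tested genes with a higher IL-25 mean, it lay between and nearer IL-25 in 22.1% and between and nearer CGRP in 16.7%. Of the 185 genes higher with CGRP, the base medium mean lay between and nearer IL-25 in 115 (62.2%) and below both in 54. It lay between and nearer CGRP in 15 and above both in 1. Among all 6170 tested genes with a higher CGRP mean these shares were 20.6% between and nearer IL-25 and 14.3% between and nearer CGRP. Genes called for a wide gap leave more room between the means, so these shares are a description. Against base medium, CGRP gave 183 calls (1.45%), 134 higher (1.06%) and 49 lower (0.388%), and IL-25 gave 9 (0.0713%), all higher. Those 9, named after their values were seen, were Il13, Il9, Il5, Csf2, Pim2, Ptgs2, Reln, Mmrn1 and Sdpr, of which the last 3 are on the endothelial list.

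With both agents together the combination mean was between and nearer CGRP in 140 of the 185 genes higher with CGRP (75.7%), between and nearer IL-25 in 17, above both in 28 and below both in 0. In the 164 genes higher with IL-25 it was between and nearer CGRP in 108 (65.9%), between and nearer IL-25 in 39, above both in 8 and below both in 9. Over all tested genes with a higher CGRP mean the combination was between and nearer CGRP in 20.3% and between and nearer IL-25 in 14.9%, and over those with a higher IL-25 mean in 20.8% and 15.1%. Il9, Tph1 and Csf2 were called higher in the combination than with CGRP alone, by 3.76, 2.02 and 1.73 (adjusted p = 0.000836, 0.00117 and 0.0242). Their differences from IL-25 alone were 0.10, 0.07 and -0.46 (adjusted p = 0.971, 0.962 and 0.699). Ramp3, Crem and Areg were higher in the combination than with IL-25 alone, by 2.47, 1.71 and 2.37 (adjusted p = 7.51e-05, 0.000357 and 0.000526). Their differences from CGRP alone were -0.20, -0.30 and 0.26 (adjusted p = 0.951, 0.863 and 0.943). Il2ra lay at 332 to 457 CPM in the combination, between the levels of the single agents. In all, the combination differed from IL-25 alone in 78 genes (0.618%), 62 higher (0.491%) and 16 lower (0.127%), and from CGRP alone in 14 (0.111%), 13 higher (0.103%) and 1 lower (0.00793%), and these contrasts share the combination libraries. The combination libraries had lower total counts than most others, and the part of depth in these counts of calls was not tested.

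**Figure D5:**
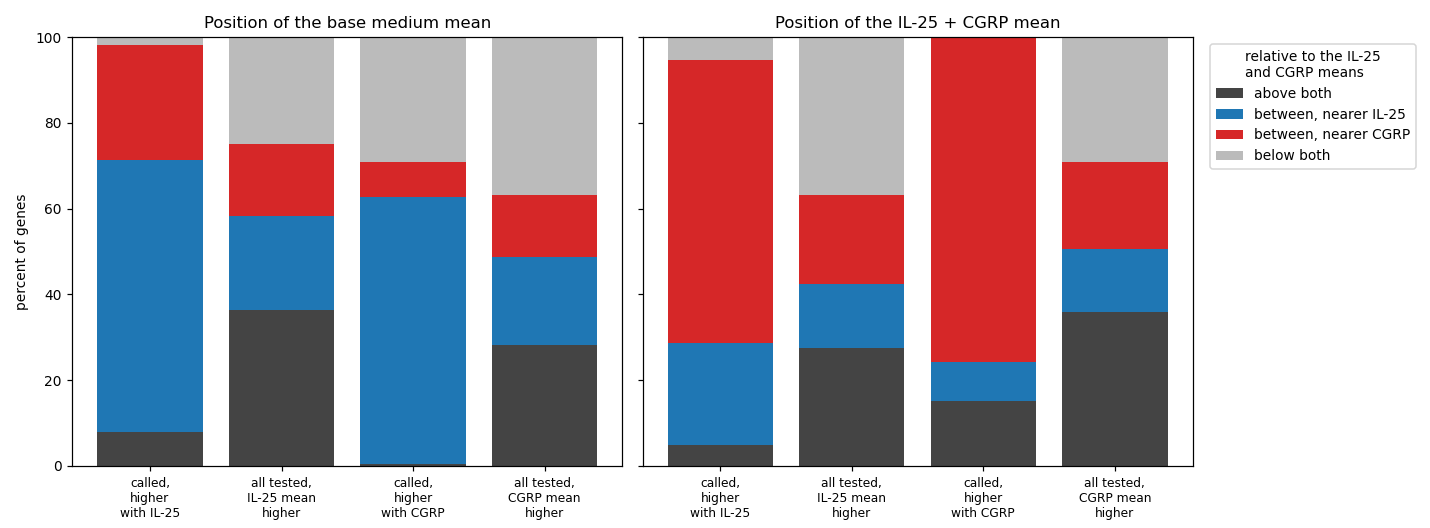
Percent of genes whose base medium mean (left) or combination mean (right) lies above, between or below the IL-25 and CGRP means on the log2(CPM + 1) scale, for called genes and for all tested genes with the same direction of means. The base medium mean is between both and nearer IL-25 in 63.4% of the genes higher with IL-25 and 62.2% of those higher with CGRP. The combination mean is between both and nearer CGRP in 65.9% and 75.7%.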

How the data were processed

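The deposited bulk table holds expected counts per gene, estimated read numbers that need not be whole, for 13 libraries made by Smart-seq2 per the labels. Build mm10 and the tools RSEM, Bowtie2, bcl2fastq and Cell Ranger are listed for the series, per the submitters' processing notes. Their roles, versions and the annotation are not given in the sources used here. Genes are named as in the table. Counting intervals cover counting error only.

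Expected counts were rounded to whole numbers and Rn45s was left out of library totals. Genes passing edgeR's filterByExpr were kept (12618 of 23420). A single fit over the 13 libraries estimated each group's mean, with TMM factors. The test was the quasi-likelihood test of edgeR (4.0.16, under R 4.3.3), Benjamini-Hochberg adjusted over all tested genes and called at 0.05. Adjusted p-values are from this test unless DESeq2 (1.42.0) is named. CPM values use the same scaling. Exon overlaps come from GENCODE M21 (mm10). Genes named were the 15 largest called differences in each direction with separate groups and a mean of at least 20 CPM in the higher group, up to 4 called members of each list in each direction, its 2 most abundant uncalled members, and 12 receptors, cytokines and factors. The text gives a selection of these, and 1 called gene is not reported here. Members, lists and motifs were chosen with earlier results of these data known. Alternatives were RLE factors, no TMM factors, DESeq2, other filters, only the 7 libraries, Rn45s kept, leaving out each library, a replicate block and a 2-fold minimum. The single-cell samples were not used here.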

Additional observations from a re-analysis of the deposited data

Results flagged for a closer look

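Of 113 values examined in the 4 CGRP libraries, 11 had a highest or lowest library far from the others. The cut used would flag about 1 in 20 values by chance if each were examined alone. These values share the same libraries, and most are of genes named for their differences. The myeloid and smooth muscle lists were drawn up after their values had been seen. The count of 11 is therefore a description and cannot be set against that rate. CGRP library 2 had the lowest median Spearman correlation to the other libraries, 0.8714. Its summed level of myeloid genes was 1790.0 CPM, and that of the markers of macrophages, dendritic cells and neutrophils was 720.0 CPM. The same library was lowest for Areg at 43.0 CPM and highest for Batf at 109.1 CPM and Csf2 at 115.9 CPM, where every IL-25 library remained on the same side of it as of the other CGRP libraries. CGRP library 3 was highest for the sum of smooth muscle genes at 531.1 CPM and for Utp20 at 21.12 CPM. CGRP library 4 was lowest for Ikzf3 at 488.5 CPM. CGRP library 1 was highest for the endothelial genes Mmrn1 at 4.168 CPM and Sdpr at 1.081 CPM. The part of these libraries' other transcripts in the differences was not tested, beyond the values without each library given above.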

How the results depend on the processing

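DESeq2 gave 584 calls (254 higher with IL-25, 330 with CGRP), among them 346 of the 349. Leaving out 1 library gave 176 to 373 calls, 92 to 191 higher with IL-25 and 84 to 194 with CGRP. Same-numbered libraries deviated together by r = 0.02, -0.02 and 0.10 across genes, so the numbers were not taken as pairs, and a replicate block gave 219 calls (102 and 117; 15 of the 91 named genes called were lost), with Il5 at -0.035. Without each library in turn Il5 ranged from -0.16 to 0.33 (-0.02 without CGRP library 4), Il4 from -0.17 to 0.37 (-0.00165 without CGRP library 1) and Il17ra from -0.092 to 0.18 (-0.04 without CGRP library 3). With DESeq2 calls higher with IL-25, base medium lay above both stimuli in 30 genes and below both in 8, and the combination above both in 14, nearer IL-25 in 59 and below both in 23. With those higher with CGRP, base medium lay above both in 4, nearer IL-25 in 196, nearer CGRP in 37 and below both in 93, and the combination above both in 58, nearer IL-25 in 39, nearer CGRP in 232 and below both in 1. In these counts nearer means between the IL-25 and CGRP means and nearer the stimulus named. The counts rise with the number of calls. Of the 91 named genes called, all were also called with RLE factors, with DESeq2, without a filter, with at least 10 CPM in 3 libraries where tested, and with Rn45s kept. Without TMM factors the calls of Bmp2, Fosl2, Jag1, Klf6, Osbpl9 and Stk38l were lost (adjusted p from 0.0543 to 0.137) and Nfkbia was gained. With only the 7 libraries those of Fosl2, Gapdh and Klf6 were lost (adjusted p from 0.0544 to 0.0672). The cause was not tested. Depth limits low genes most, as where a group holds 2 counts.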
